A study of Mus musculus with 25 samples.

Results

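The 8 genes H19, Igf2, Afp, Gpc3, Dlk1, Meg3, Igf2bp3 and Peg3 were followed through mouse liver and liver tumors. They were taken by symbol from the 48795 genes listed for each library, and were chosen as oncofetal or imprinted genes with their levels in these same samples already known. Their values are therefore given as a description, with no p-value. The 25 RNA libraries came from male mice of the inbred strain C57BL/6J. Liver of mice that were not injected came from the control diet (nonDEN L-CD, 3 libraries) and from the western diet (nonDEN L-WD, 4 libraries). The other mice carried an injection of the liver carcinogen diethylnitrosamine (DEN), given at 25 mg/kg at 2 weeks of age. From these, liver was taken on the control diet (DEN L-CD, 4 libraries), and peritumoral liver (DEN PT-WD, 8 libraries) and tumors (DEN T-WD, 6 libraries) on the western diet. Diets began at weaning and tissue was collected at 36 weeks, with 39 weeks as the latest age given for this model. Visible tumors could not be cut out of the DEN L-CD livers, so those libraries may hold tumor tissue. The labels do not say which tumor and peritumoral pieces came from 1 mouse, so group differences are measured over samples.

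Imprinted genes are read mainly from the copy inherited from 1 parent, and several of them control growth of the fetus. H19 is a long noncoding RNA of the maternal copy and Igf2, the fetal insulin-like growth factor, is read from the paternal copy of the same locus. In another imprinted locus the noncoding RNA Meg3 is maternal and Dlk1, a membrane protein related to Notch ligands, is paternal. Peg3, a zinc finger protein, is paternal as well. Oncofetal genes are active in fetal liver, silent in adult hepatocytes and often active again in hepatocellular carcinoma. Afp encodes alpha-fetoprotein, the main serum protein of the fetus. Gpc3 encodes glypican-3, a heparan sulfate proteoglycan of the cell surface, and Igf2bp3 encodes a fetal RNA-binding protein that binds Igf2 messenger RNA among other targets.

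On the mouse assembly GRCm38, H19 is at chr7:142575529-142578143 and Igf2 at chr7:142650766-142666816, both on the minus strand and 72.6 kb apart. Dlk1, at chr12:109452823-109463336, lies 77.7 kb before Meg3, at chr12:109541001-109571726, both on the plus strand. Afp, at chr5:90490737-90508907, follows the albumin gene Alb on the same strand after 14.1 kb. Gpc3 spans chrX:52272426-52613950, Igf2bp3 spans chr6:49085223-49214957 and Peg3 spans chr7:6703892-6730431, all on the minus strand. H19 and Meg3 are annotated as long intergenic noncoding RNAs and the other 6 genes as protein coding. The noncoding RNAs, Igf2 and Gpc3 are also host genes of microRNAs. The mature RNAs of 3 of these hairpins, those of the imprinted hosts that have both arms listed, are shown because their hairpins lie within these genes, with the seed (bases 2 to 8) in capitals, as RefSeq gives them:
miR-675-5p, in H19: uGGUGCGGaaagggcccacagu
miR-675-3p, in H19: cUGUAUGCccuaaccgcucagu
miR-483-5p, in Igf2: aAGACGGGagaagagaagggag
miR-483-3p, in Igf2: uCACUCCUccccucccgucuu
miR-770-5p, in Meg3: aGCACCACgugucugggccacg
miR-770-3p, in Meg3: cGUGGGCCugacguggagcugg

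The 9 mature microRNAs found inside the 8 genes have 9 distinct seeds, so no 2 of them share one. The miR-675 hairpin lies within an exon in 3 of the 7 annotated H19 transcripts, the miR-770 hairpin in 1 of 11 Meg3 transcripts, and the miR-483 hairpin in 0 of 9 Igf2 transcripts, where it is intronic. The rows for Mir675, Mir483 and Mir770 held 0 counts in every library. Libraries of polyadenylated RNA are not made to catch such short RNAs, so the levels below are those of the host transcripts.

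Afp and Gpc3 had the highest tumor levels of the 6 protein-coding genes and moved together over the samples, so their promoters are set side by side. Each sequence runs from 250 bases before to 50 bases after the RefSeq start, 5′ to 3′ on the strand of the gene, and capitals mark the motifs searched for:
Afp promoter, chr5:90490464-90490763, plus strand: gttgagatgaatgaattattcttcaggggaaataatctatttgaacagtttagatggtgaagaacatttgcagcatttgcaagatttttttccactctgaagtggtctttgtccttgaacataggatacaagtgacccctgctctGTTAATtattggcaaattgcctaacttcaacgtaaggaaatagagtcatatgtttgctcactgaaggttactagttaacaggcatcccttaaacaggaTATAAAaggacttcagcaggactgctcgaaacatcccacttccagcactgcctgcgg
Gpc3 promoter, chrX:52613925-52614224, minus strand: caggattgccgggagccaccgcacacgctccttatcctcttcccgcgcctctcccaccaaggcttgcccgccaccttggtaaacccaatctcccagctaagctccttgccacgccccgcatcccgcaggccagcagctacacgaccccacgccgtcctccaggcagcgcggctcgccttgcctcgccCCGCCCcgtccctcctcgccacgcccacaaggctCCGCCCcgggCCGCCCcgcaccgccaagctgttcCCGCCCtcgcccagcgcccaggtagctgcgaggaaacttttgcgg

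The motifs were GTTAAT (part of the site of the hepatocyte factor HNF1), TATAAA (the TATA box) and CCGCCC (a GC box), each read on both strands, with no overlap between the marked matches. The Afp window held 1 GTTAAT, 1 TATAAA and 3 CpG dinucleotides at 40% G and C. The Gpc3 window held 4 CCGCCC and 30 CpG at 70.7% G and C, without the other two motifs. Over 32817 promoters of the same length, 7.1% held GTTAAT, 13.6% held TATAAA and 35.6% held CCGCCC, and the median promoter held 7 CpG. The pair thus differed widely in base composition. The window of Alb, the neighbour of Afp, also held 1 GTTAAT and 3 CpG.

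The libraries held between 21530083 and 38074411 counts each. All 8 genes passed the filter on low counts, as did 15625 of the 48795 genes. Hepatocyte markers were present in every library, with all 10 of the list above 0 in each group. In the tumors their summed level ran from 116754 to 141746 TPM (the authors' length-corrected share of the transcripts of a library) in 5 libraries and was 34268 TPM in tumor 5, below every other library of the series. Most of the sum was Alb, and the other 9 markers summed to 33909 to 42010 TPM in the 5 tumors and 12389 TPM in tumor 5. Single markers went both ways in tumors against peritumoral liver, with Apoa1 called higher, Cyp2e1 and G6pc called lower and a median log2 difference of −0.40. The same tumor had the highest summed leukocyte markers, at 139 TPM, so tumor values are also given without it. Stellate cell and fibroblast markers moved with the groups, from 45.8 to 55.7 TPM in nonDEN L-CD and from 140 to 189 TPM in the tumors. Endothelial markers summed to 82.7 to 129 TPM in nonDEN L-WD, 134 to 170 TPM in peritumoral liver and 129 to 159 TPM in tumors. Leukocyte markers summed to 28.1 to 42.1 TPM in nonDEN L-CD and 33.4 to 67.0 TPM in nonDEN L-WD. They ran from 49.98 to 107 TPM in peritumoral liver, which overlapped nonDEN L-WD, and from 56.7 to 139 TPM in tumors. Of 4 mesothelial markers 3 were called lower in tumors than in peritumoral liver, beside 3.09% of all genes. The 4 adipocyte markers summed to 2.31 to 2.67 TPM in nonDEN L-CD and 21.45 to 77.53 TPM in nonDEN L-WD. In tumors the adipocyte sum ran from 1.81 to 43.73 TPM. The part that these shifts in cell types have in the levels below was not tested, and in whole tissue fewer cells of a type and less RNA per cell cannot be told apart.

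**Figure D1:**
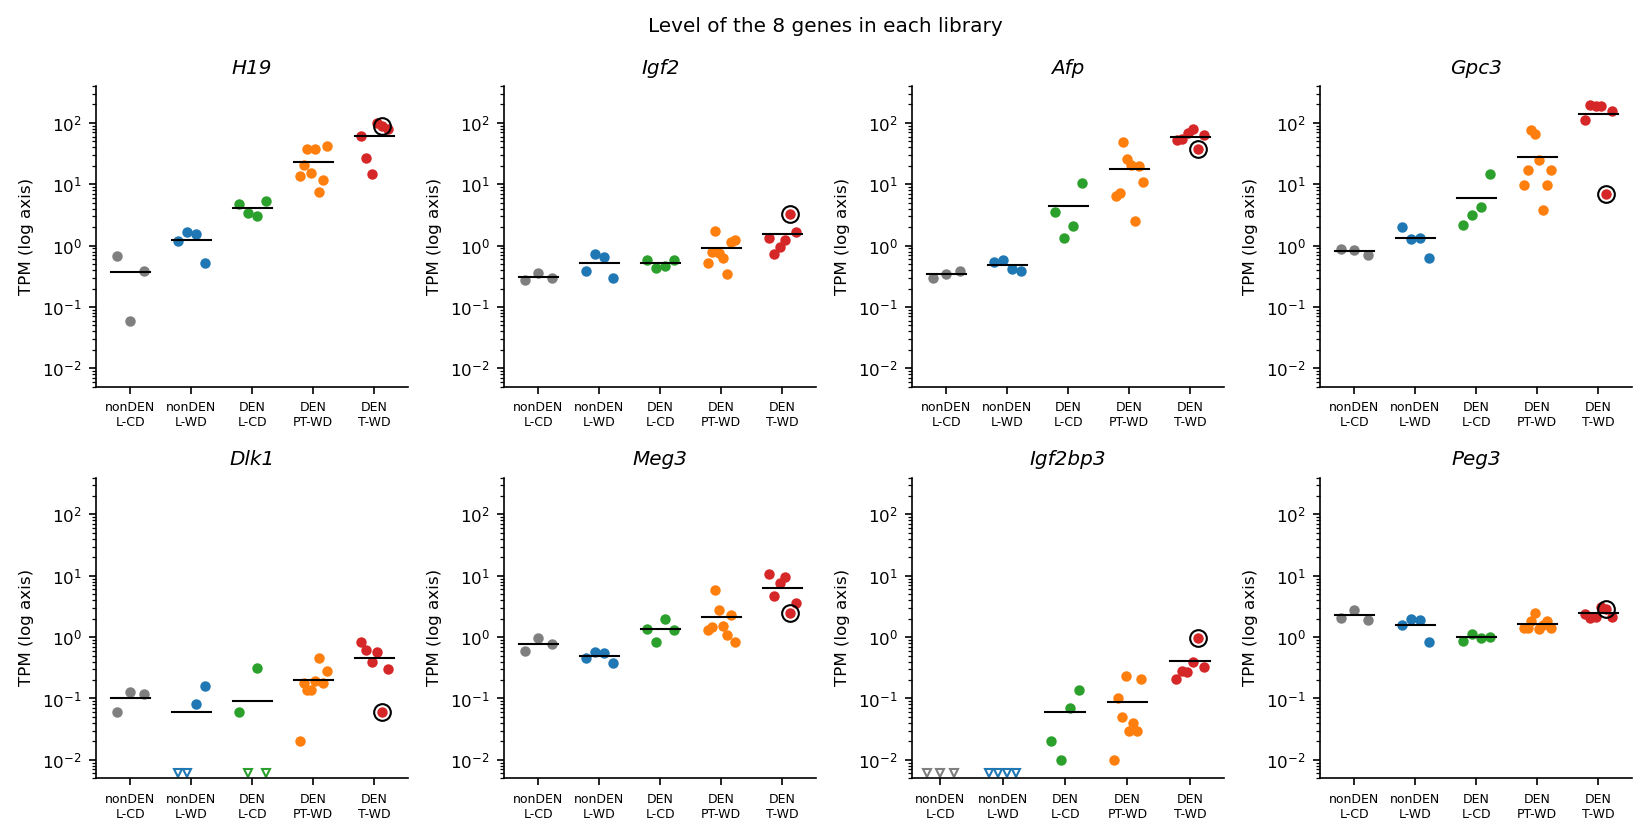
TPM of each of the 8 genes (log axis) in the 25 libraries by group, with a line at the group mean, open triangles for libraries at 0 and a ring around tumor 5. H19, Afp and Gpc3 stand lowest in nonDEN liver and highest in tumors, Igf2bp3 is at 0 in all 7 nonDEN libraries, and Peg3 stays between 0.83 and 3.09 TPM throughout.

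The median of H19 rose over the groups in the order below, though the 2 nonDEN groups overlapped, as did peritumoral liver and tumors. It was at 0.67, 0.06 and 0.38 TPM in the 3 nonDEN L-CD libraries, and at 1.2, 1.68, 1.57 and 0.53 TPM in the 4 nonDEN L-WD libraries. In liver of DEN mice on the control diet it was at 4.8, 3.36, 2.99 and 5.41 TPM. These 3 groups of liver did not overlap between nonDEN and DEN mice. Peritumoral liver ran from 7.39 to 41.76 TPM with a median of 18.0, above every DEN L-CD library, and tumors ran from 14.92 to 100.99 TPM with a median of 69.6. The means were 23.2 ± 13.6 TPM (SD, n = 8) in peritumoral liver and 62.0 ± 34.8 TPM (SD, n = 6) in tumors, a ratio of 2.68. Their ranges overlapped, and 4 of the 6 tumors exceeded all peritumoral samples. Tumors were 49.8 times and peritumoral liver 18.6 times the nonDEN L-WD mean of 1.25 TPM. On the log2 scale of the count model, DEN L-CD was 3.68 ± 0.91 (SE) above nonDEN L-CD. That difference was 5.27 without replicate 1 of nonDEN L-CD, which held 29 H19 counts where the lowest library of the group held 1. The diet difference in nonDEN liver, 1.77 ± 0.97 (SE), also went up without this library, to 3.36, and those ranges overlapped.

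Igf2, the growth factor next to H19, did not exceed 3.33 TPM in any library. The 3 nonDEN L-CD libraries were at 0.28, 0.36 and 0.3 TPM, the 4 nonDEN L-WD libraries at 0.39, 0.72, 0.65 and 0.3 TPM, and the 4 DEN L-CD libraries at 0.59, 0.44, 0.46 and 0.59 TPM. Peritumoral liver ran from 0.35 to 1.76 TPM with a median of 0.775, and tumors ran from 0.73 to 3.33 TPM with a median of 1.29. In TPM all 6 tumors were above the 4 nonDEN L-WD libraries, by 0.73 against 0.72 TPM at the closest, while in normalised counts the groups overlapped (21.96 in tumor 2 and 23.70 in nonDEN L-WD replicate 3). Tumors and peritumoral liver overlapped on both scales. The tumor mean was 1.54 ± 0.932 TPM (SD, n = 6) and 1.18 ± 0.35 TPM without tumor 5, which held the highest value. Against peritumoral liver, at 0.899 ± 0.459 TPM (SD, n = 8), this made a ratio of 1.71, or 1.31 without tumor 5. On the log2 scale of the count model the difference was 0.39 with all libraries and −0.04 without tumor 5, so its direction rested on that library. Against nonDEN L-WD the tumor mean was 2.99 times higher, or 2.29 times without tumor 5. The log2 difference of these groups was 1.57 ± 0.42 (SE), or 1.15 without tumor 5. Peritumoral liver was 1.19 ± 0.40 (SE) above nonDEN L-WD on that scale, with overlap. DEN livers of the control diet were 1.45 ± 0.52 (SE) above uninjected ones of that diet, without overlap. Neither difference was called. The mean transcript length assigned to Igf2 ran from 1243 to 3776 bases between libraries, which enters TPM and not counts.

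H19 rose more than Igf2 across the groups, and both rose in normalised counts. On that scale the mean of Igf2 went from 11.96 for nonDEN L-CD through 19.61, 32.91 and 44.65 to 58.28 for tumors. The order of groups was that given for H19. The mean of H19 went from 14.36 to 2174 between the same end groups, so the genes differed in the size of their rise. The ratio of their TPM values had a median of 1.27 in the nonDEN L-CD libraries and 2.37 in the nonDEN L-WD libraries, and ran from 6.5 to 9.17 in the DEN L-CD libraries. It reached a median of 23.5 in peritumoral liver, between 10.2 and 61.3, and a median of 41.1 in tumors, between 15.5 and 81.4. Every DEN L-CD library had a ratio above every nonDEN library, and every peritumoral library had one above every DEN L-CD library. Within groups the pair of genes followed each other loosely. On log2 CPM (counts per 1e6 counts of the library) the Pearson r was 0.56 and Spearman's rho 0.57 over the 8 peritumoral libraries, and r was 0.17 without the 2 libraries farthest from the H19 median. In the 6 tumors r was 0.62 and rho 0.60, and r was −0.15 without 2 of them, so the relation rested on those libraries. Ins2, the insulin gene 11.8 kb beyond Igf2, was at 18.41 TPM in peritumoral replicate 1, at 5.71 TPM in replicate 2 and lower elsewhere. These were also the libraries with the highest summed pancreatic acinar markers, at 4775 and 1839 TPM. The 5 islet markers other than Ins2 summed to 4.99 and 1.54 TPM there, above the 0.99 TPM of the next library. The part of pancreatic RNA in the Ins2 level was not tested.

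**Figure D2:**
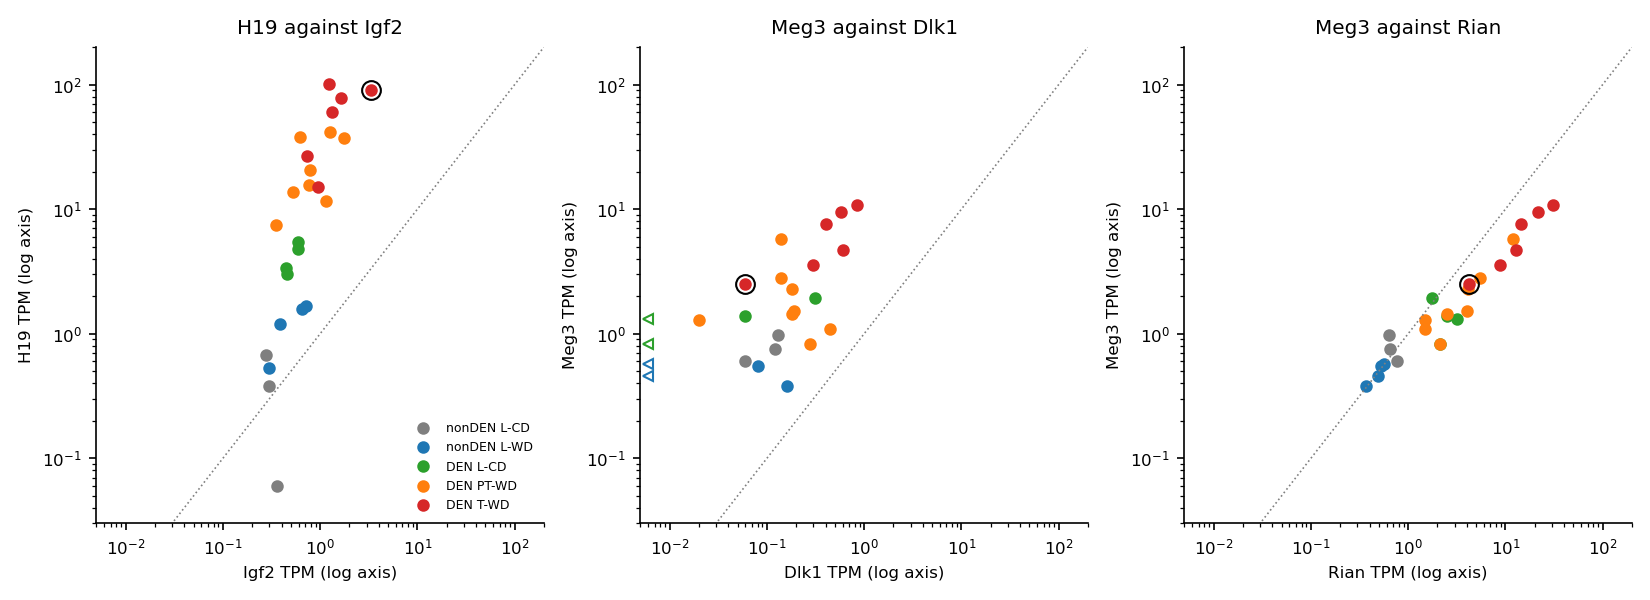
Level of neighbouring imprinted genes in each of the 25 libraries (TPM, log axes), H19 against Igf2, Meg3 against Dlk1 and Meg3 against Rian, with open triangles for libraries where Dlk1 is at 0, a dotted line of equal level and a ring around tumor 5. H19 climbs away from the line of equal level while Igf2 stays below 3.5 TPM, and Meg3 and Rian climb together.

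Meg3, the maternal noncoding RNA of the other locus, was at 0.6, 0.98 and 0.76 TPM in the nonDEN livers of the control diet and at 0.46, 0.57, 0.55 and 0.38 TPM in those of the western diet. The DEN L-CD libraries were at 1.38, 0.82, 1.94 and 1.3 TPM, and replicate 2 alone lay inside the nonDEN range. Peritumoral liver ran from 0.82 to 5.8 TPM with a median of 1.48, and tumors ran from 2.49 to 10.82 TPM with a median of 6.13. The means were 2.13 ± 1.62 TPM (SD, n = 8) and 6.44 ± 3.37 TPM (SD, n = 6), a ratio of 3.03, with overlapping ranges. All 6 tumors and all 8 peritumoral samples were above the 4 nonDEN L-WD libraries, whose mean was 0.49 TPM. Peritumoral replicate 3 was the highest of its group and tumor 5 the lowest of the tumors. The log2 difference of peritumoral liver from DEN L-CD was 0.18, and −0.17 without peritumoral replicate 3.

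Dlk1, the protein-coding neighbour of Meg3, was close to the limit of detection. It was at most 0.84 TPM in any library. Its counts were 1, 2 and 1 in the nonDEN L-CD libraries, 0, 0, 2 and 2 in those of nonDEN L-WD, and 1, 0, 9 and 0 in those of DEN L-CD. Peritumoral libraries held between 1 and 11 counts and tumors between 1 and 16. In normalised counts the tumor mean was 2.46 times a floor of 3 counts per nonDEN L-WD library. The ranges of the 2 groups overlapped because tumor 5 held 1 count, and the counts are too few for a fold change to be read. Rtl1, a paternal gene 17.5 kb from Meg3, was at 0.01 TPM or less everywhere, and Dio3, also paternal, reached at most 0.38 TPM.

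Rian, a maternal noncoding RNA that lies 32.2 kb beyond Meg3, was not among the 8 genes. It was listed as a neighbour of Meg3 with earlier results known, so its test is not independent of the choice of Meg3. It averaged 15.4 ± 9.43 TPM (SD, n = 6) in tumors, 4.15 ± 3.47 TPM (SD, n = 8) in peritumoral liver and 0.49 ± 0.0864 TPM (SD, n = 4) in nonDEN L-WD. Rian rose in tumors against peritumoral liver by 1.83 ± 0.41 on the log2 scale (SE, edgeR quasi-likelihood test, adjusted p = 0.00114) and in peritumoral liver against nonDEN L-WD by 2.95 ± 0.61 (adjusted p = 0.00469). On the control diet the difference of DEN from nonDEN liver, 1.96 ± 0.72, did not pass (adjusted p = 0.0538). Meg3 and Rian followed each other within groups. Their r was 0.92 and rho 0.90 in peritumoral liver (n = 8), and r was 0.94 without the 2 libraries farthest from the Meg3 median. In the tumors (n = 6) r was 0.97 and rho 1.00, and r was 0.96 without 2 of them. These points share library depth and cell mixture. For H19 and Meg3, r was 0.24 in peritumoral liver (rho 0.12) and 0.64 without the 2 libraries farthest from the H19 median. In tumors it was −0.19 (rho −0.14), also without 2 of them.

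Afp was at most at 0.59 TPM in nonDEN liver and at least at 37.87 TPM in tumors. The nonDEN L-CD libraries were at 0.3, 0.35 and 0.38 TPM and the nonDEN L-WD libraries at 0.54, 0.59, 0.41 and 0.38 TPM. DEN L-CD livers were at 3.47, 1.35, 2.1 and 10.6 TPM, with replicate 4 highest and every library above both nonDEN groups. Peritumoral liver ran from 2.53 to 48.12 TPM with a median of 15.5, and tumors ran from 37.87 to 79.61 TPM with a median of 60.1. The means were 17.7 ± 14.7 TPM (SD, n = 8) and 60.1 ± 14.4 TPM (SD, n = 6), a ratio of 3.40. Of the 6 tumors, 5 were above all peritumoral samples, and tumor 5 was exceeded by peritumoral replicate 3. Tumors were 125 times and peritumoral liver 36.9 times the nonDEN L-WD mean of 0.48 TPM. DEN L-CD was 12.8 times nonDEN L-CD, and its log2 difference of 3.69 ± 0.94 (SE) went down to 2.76 without DEN L-CD replicate 4.

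Gpc3, which encodes the surface proteoglycan, reached the highest level of the 8 genes. It was at 0.89, 0.84 and 0.7 TPM in the nonDEN L-CD libraries, at 2.0, 1.28, 1.34 and 0.62 TPM in the nonDEN L-WD libraries, and at 2.13, 3.19, 4.22 and 14.54 TPM in the DEN L-CD libraries. Peritumoral liver ran from 3.81 to 77.11 TPM with a median of 17.2. Tumors held 112.1, 196.63, 189.0, 187.27, 6.95 and 153.91 TPM. Tumor 5 was thus below 7 of the 8 peritumoral samples, while the other 5 tumors were above all of them. The tumor mean was 141 ± 72.8 TPM (SD, n = 6) and 168 ± 35.2 TPM without tumor 5, against 28.2 ± 27.8 TPM (SD, n = 8) in peritumoral liver, ratios of 5.00 and 5.95. Against the nonDEN L-WD mean of 1.31 TPM the tumors were 108 times higher. DEN L-CD was 2.83 ± 1.07 (SE) above nonDEN L-CD on the log2 scale, and 1.93 without DEN L-CD replicate 4.

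Afp and Gpc3 ordered the peritumoral libraries alike. Replicate 3 was highest and replicate 6 lowest for both, with 48.12 and 2.53 TPM of Afp and 77.11 and 3.81 TPM of Gpc3. Over the 8 peritumoral libraries r was 0.88 and rho 0.93, and r was 0.62 without the 2 libraries farthest from the Afp median. In the tumors (n = 6) r was 0.85 and rho 0.89, and r was 0.55 without 2 of them. For H19 and Afp, r was 0.59 in peritumoral liver (rho 0.52) and −0.17 in tumors (rho 0.03), and 0.52 and 0.42 without the 2 libraries farthest from the H19 median, so the sign in tumors rested on those libraries. Alb, the adult counterpart of Afp and its neighbour on the chromosome, differed by 0.89 ± 0.24 (log2, SE) between tumors and peritumoral liver (edgeR quasi-likelihood test, adjusted p = 0.00622), short of the threshold of 1. Without tumor 5 it was called higher, at 1.09 ± 0.15 (adjusted p = 7.89e-06). Alb averaged 80146 ± 29455 TPM (SD, n = 6) in tumors and 40114 ± 8120 TPM (SD, n = 8) in peritumoral liver, a ratio of 2.00, or 2.29 without tumor 5. The ratio of Afp to Alb went from a median of 1.05e-05 in nonDEN L-WD to 0.00040 in peritumoral liver and 0.000737 in tumors. The last 2 groups overlapped, and peritumoral replicates 3 and 7 exceeded 5 of the 6 tumors. Afm, the other albumin relative beside Afp, differed by 0.75 ± 0.21 between tumors and peritumoral liver (adjusted p = 0.00625), and by 0.93 without tumor 5.

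**Figure D3:**
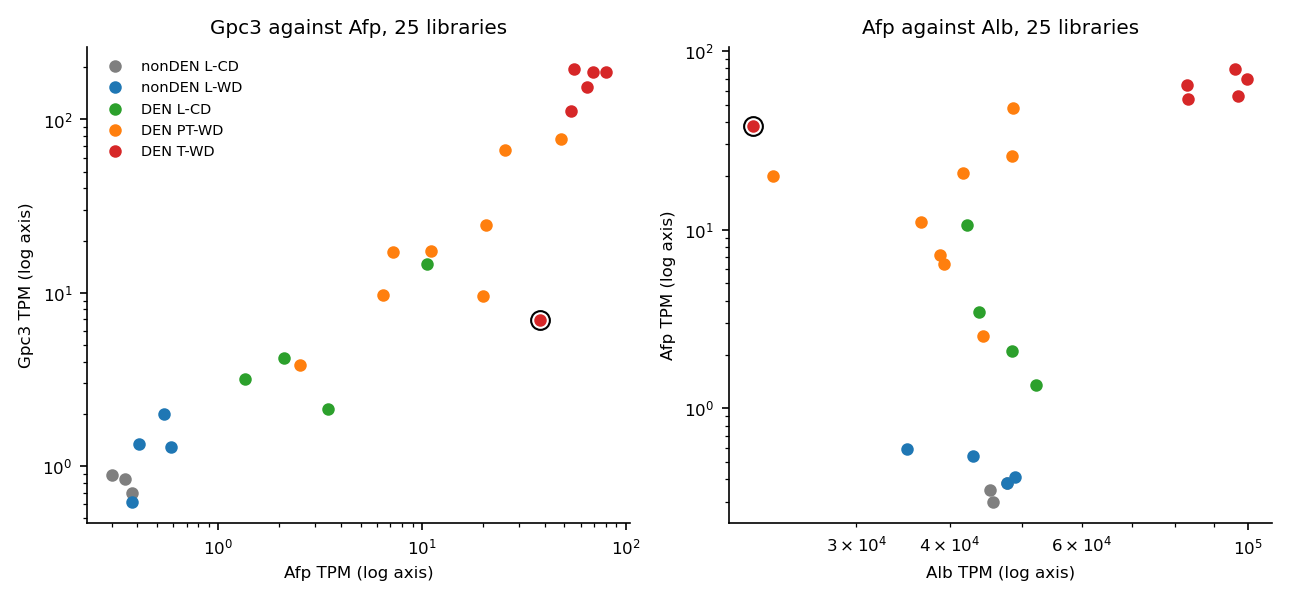
Gpc3 against Afp (left) and Afp against Alb (right) in the 25 libraries (TPM, log axes), coloured by group, with a ring around tumor 5. Gpc3 and Afp rise together from nonDEN liver to tumors except in tumor 5, where Gpc3 is at 6.95 TPM, while Afp spans more than 100-fold at Alb levels between 21879 and 99736 TPM.

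Igf2bp3, the fetal RNA-binding protein, held 0 counts in all 7 nonDEN libraries, which at their depth allows up to 3 counts each. It held 2, 1, 5 and 3 counts in the DEN L-CD libraries, between 1 and 9 counts in peritumoral liver, and 12, 18, 9, 30, 83 and 28 counts in the tumors. In TPM the tumors ran from 0.21 to 0.97 with a median of 0.305, and the mean was 0.408 ± 0.282 TPM (SD, n = 6) or 0.296 ± 0.0677 TPM without tumor 5, the highest. Peritumoral liver was at 0.0875 ± 0.086 TPM (SD, n = 8). Tumors and peritumoral liver overlapped in TPM, with 0.21 in the lowest tumor and 0.23 in the highest peritumoral sample, and did not overlap in normalised counts. Against nonDEN L-WD the tumor mean was at least 8.34-fold higher on normalised counts, from the floor of 3 counts per library. Igf2bp3 overlaps Malsu1 on the opposite strand and shares 18.1% of its 50-base words with it. Malsu1 held between 166 and 294 counts in every library, including those with 0 counts for Igf2bp3. Among the relatives of Igf2bp3, Igf2bp2 was at 0.49 to 1.61 TPM over all libraries and differed by −0.04 ± 0.24 (log2, SE) between tumors and peritumoral liver (edgeR, adjusted p = 0.909), and Igf2bp1 was at most 0.73 TPM.

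Peg3 was lower in DEN than in nonDEN liver on the control diet, and higher in tumors and peritumoral liver than in DEN L-CD. Uninjected mice had 2.05, 2.8 and 1.92 TPM on the control diet and 1.57, 2.0, 1.88 and 0.83 TPM on the western diet. The DEN L-CD libraries had 0.86, 1.14, 0.97 and 1.0 TPM, all below the nonDEN libraries of the same diet. Peritumoral liver ran from 1.34 to 2.44 TPM with a median of 1.5, above all of DEN L-CD, and tumors ran from 2.07 to 3.09 TPM with a median of 2.28. The means were 0.993 ± 0.115 TPM (SD, n = 4) in DEN L-CD, 2.26 ± 0.475 TPM (SD, n = 3) in nonDEN L-CD and 2.45 ± 0.422 TPM (SD, n = 6) in tumors. The group that was lowest for Peg3 was therefore DEN L-CD, at 0.440 times nonDEN L-CD, and tumors were close to liver of uninjected mice on the control diet. Tumors were 1.48 times peritumoral liver, with overlap in TPM but not in normalised counts. The mean transcript length that the authors' estimates assign to Peg3 ran from 4247 to 8087 bases between libraries, which enters TPM and not counts. Usp29, which starts 0.1 kb from Peg3 on the other strand, was at most 0.03 TPM, and Zim1, 7.4 kb away, was at most 0.08 TPM.

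Set against all genes tested, the calls of the 8 genes were as follows, where a call is an absolute log2 difference of at least 1 and an adjusted p of at most 0.05. In tumors against peritumoral liver 5 of 8 were called higher, beside 4.81% of all tested genes, and 2 were higher without overlap in normalised counts, beside 4.28%. In tumors against nonDEN L-WD 7 were called higher, beside 10.4%, and 6 did not overlap, beside 15.8%. In peritumoral liver against nonDEN L-WD both counts were 5, beside 2.36% and 3.8%. In peritumoral liver against DEN L-CD 1 was called higher, beside 1.52%, and 2 did not overlap, beside 4.38%. On the control diet, DEN against nonDEN liver had 3 called higher, beside 2.76%, and 1 called lower, beside 1.93%. There 6 were higher and 1 was lower without overlap, beside 17.2% and 17.1%. Between the diets in nonDEN liver 1 of the 8, Peg3, was lower on the western diet without overlap in normalised counts, beside 15.2%. The genes were picked on these contrasts, so nothing is read from the counts.

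The tumors were not alike in these genes. Tumor 5 was the lowest of the 6 for Afp, Gpc3 and Meg3 and the highest for Igf2 and Igf2bp3, and it was second for H19 at 90.27 TPM. Its Gpc3 level was 0.0371 times the median of the other 5 tumors, and its Meg3 level 0.328 times, while Igf2bp3 was 3.46 times and Igf2 2.69 times. Dlk1 held 1 count in tumor 5 and 7 to 16 in the others, too few for a ratio. Tumors 2 and 3 had the lowest H19, at 26.7 and 14.92 TPM, and the highest Gpc3, at 196.63 and 189.0 TPM. Peg3 varied least, with 2.07 to 3.09 TPM over the 6. Without tumor 5 the ratio of tumor to peritumoral means was 2.43 for H19, 3.65 for Afp, 3.40 for Meg3 and 1.44 for Peg3. Other liver genes also set tumor 5 apart: Alb was at 21879 TPM against 82845 to 99736 TPM in the other 5, and Zfp57 at 1.12 against 6.64 to 12.93 TPM.

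**Figure D4:**
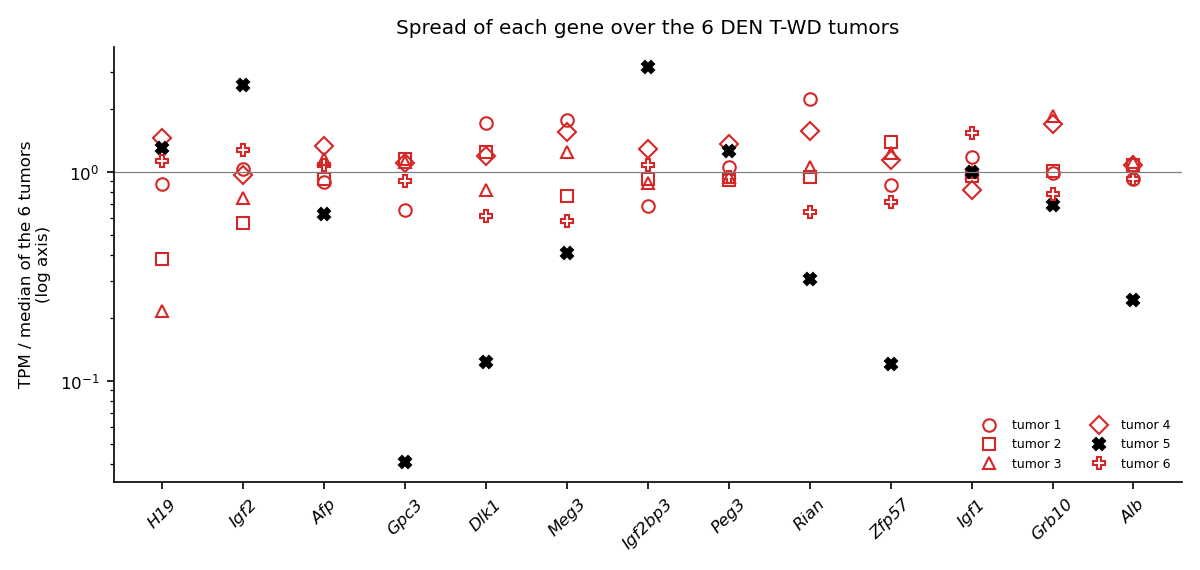
TPM of the 8 genes and of Rian, Zfp57, Igf1, Grb10 and Alb in each of the 6 tumors, divided by the median of the 6 (log axis), with tumor 5 as a filled cross. The Dlk1 point of tumor 5 rests on 1 count. Tumor 5 is far below the others for Gpc3 and Zfp57 and above them for Igf2 and Igf2bp3, while Peg3 stays within a narrow band.

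The genes whose log2 CPM were most like each member over the 25 libraries, by Pearson r, are given as a description. All points share the group structure, so a high r mainly says that a gene has the same order of groups. H19 was most like Fam129a (r = 0.95), Anxa3 (0.94) and Arl4c (0.93). Afp was most like Cacna1b (0.98), a neuronal calcium channel subunit that averaged 1.85 TPM in tumors, then 5330417C22Rik (0.97) and Esm1 (0.96). Gpc3 was most like Kif5c (0.98), a kinesin that went from 0.0525 TPM in nonDEN L-WD to 12.2 TPM in tumors, then Ipcef1 (0.98) and 2310034O05Rik (0.98). Meg3 was most like its neighbour Rian (0.96), followed by Vamp5 (0.90) and Bex1 (0.90). For Igf2 the top genes were Degs1 (0.90), Lsp1 (0.87) and Rab3il1 (0.86), for Igf2bp3 Panx1 (0.94), Naip2 (0.94) and Atpif1 (0.93), and for Peg3 Sept11 (0.87), Plec (0.85) and Ccdc71 (0.83). Dlk1 had the weakest likeness, led by Pglyrp1 (0.73), Ccrl2 (0.73) and Gm830 (0.72). Among the members themselves r was 0.94 for Afp and Gpc3 and 0.82 for H19 and Igf2, but 0.01 for H19 and Peg3.

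Other imprinted genes did not move as a block. The gene lists of this and the following paragraphs were chosen with earlier results of these data known. Their counts and tests are not independent of that choice. Of 65 listed imprinted genes outside the 8, 46 were tested. In tumors against peritumoral liver 3 rose and 3 fell, where 4.81% of all tested genes were called higher and 3.09% lower, and the median log2 difference of the 46 was −0.03 beside 0.01 for all genes. Of the 28 tested maternal genes 3 rose and 1 fell, and of the 18 paternal genes 2 fell. Besides Rian those that rose were Grb10, an adaptor that restrains insulin and IGF receptor signalling (7.95 ± 3.29 TPM, n = 6, against 2.48 ± 0.779 TPM, n = 8, log2 difference 1.51 ± 0.22, edgeR adjusted p = 1.31e-05), and Phlda2, a placental growth restrictor (2.31 ± 0.68, adjusted p = 0.0102). Phlda2 no longer passed without tumor 5 (1.31, adjusted p = 0.103). Those that fell were Slc22a3, an organic cation transporter (−1.33 ± 0.23, adjusted p = 9.01e-05), Ndn (−1.20 ± 0.36, adjusted p = 0.0116) and Ins2 (−4.83 ± 1.62, adjusted p = 0.0221). Without tumor 5 Ndn was at −0.95 and no longer called. Ins2 was too low to be tested once peritumoral replicate 1, the library highest for Ins2 and for the pancreatic markers, was left out.

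Against nonDEN L-WD, 9 of the 46 rose and 3 fell in tumors, where 10.4% and 5.24% of all genes did, and their median of −0.05 lay beside 0.02 for all genes. Without tumor 5 it was 7 and 3. Rian rose by 4.78 ± 0.64 (edgeR adjusted p = 3.03e-06) and Grb10 by 2.20 ± 0.28 (adjusted p = 1.71e-06). Mest rose by 1.54 ± 0.24 (adjusted p = 1.5e-05) and Plagl1, a zinc finger regulator of many imprinted genes, by 1.25 ± 0.18 (adjusted p = 9.46e-06). Plagl1, Mest, Asb4 and Rian also rose in peritumoral liver against nonDEN L-WD, where 2.36% of all genes were called higher and 0.41% lower. In peritumoral liver against DEN L-CD 3 rose, Airn, Asb4 and Mest, and Peg10 fell, beside 1.52% and 0.378% of all genes, and these 4 calls were 2 without DEN L-CD replicate 3. Between the diets in nonDEN liver 5 rose and 1 fell, beside 3.24% and 2.04%. These 6 calls were 2 without nonDEN L-CD replicate 2 and 3 without nonDEN L-CD replicate 3 or nonDEN L-WD replicate 1. Between tumors and peritumoral liver Plagl1 differed by 0.14 ± 0.14 (adjusted p = 0.468) and Cdkn1c, a maternal cell cycle inhibitor, by 0.23 ± 0.18 (adjusted p = 0.343). Peg10, a paternal gene derived from a retrotransposon, was called in 3 comparisons, always downward. It fell in nonDEN L-WD against nonDEN L-CD by 2.41 on the log2 scale (adjusted p = 0.000197), in DEN L-CD against nonDEN L-CD by 1.74 (adjusted p = 0.00281) and in peritumoral liver against DEN L-CD by 1.40 (adjusted p = 0.00868). Its mean was 2.66 ± 1.47 TPM (SD, n = 3) in nonDEN L-CD and at most 0.823 TPM in the other groups. In TPM the groups of the last 2 comparisons overlapped. DEN L-CD ran from 0.36 to 1.37 TPM, while the lowest nonDEN L-CD library was at 1.32 TPM and the highest peritumoral library at 0.51 TPM.

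**Figure D5:**
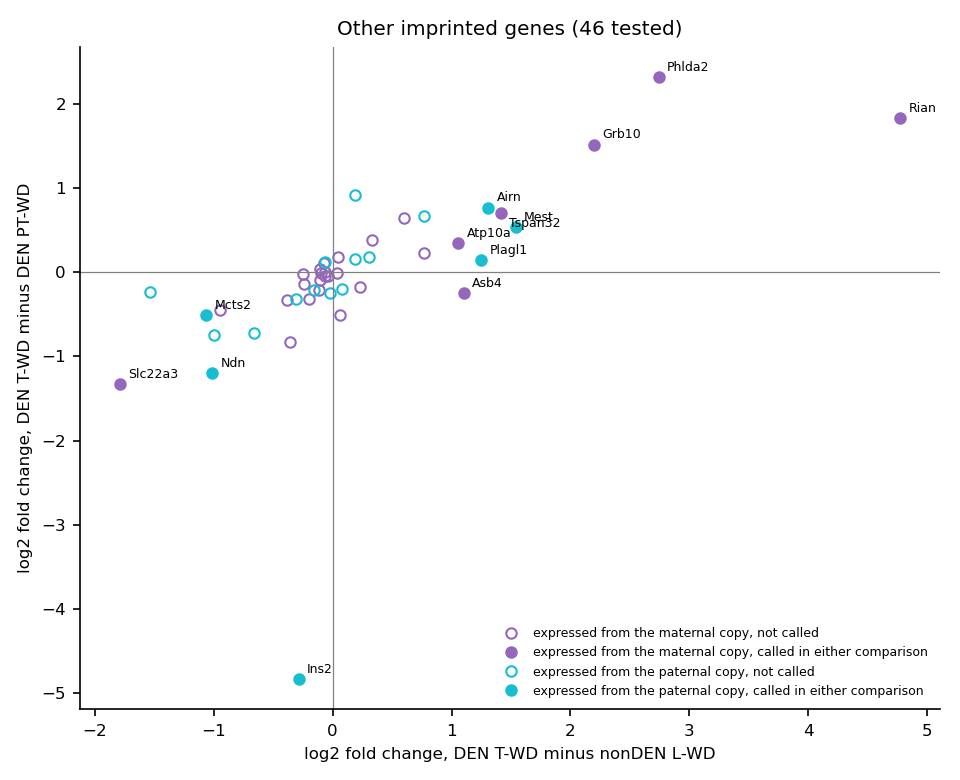
Log2 difference of each of the 46 tested imprinted genes outside the 8, tumors minus peritumoral liver (vertical) against tumors minus nonDEN L-WD (horizontal), coloured by the parental copy that is usually read and filled where the gene was called in either comparison. Most genes lie near the origin, Rian, Grb10 and Phlda2 lie high in both and Slc22a3 low in both, and Ins2 is low in the vertical comparison alone.

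Of 27 further oncofetal genes, 21 were tested, and 11 of them rose in tumors against peritumoral liver, beside 4.81% of all genes (median log2 difference 1.02, beside 0.01 for all genes), 14 rose against nonDEN L-WD, beside 10.4% (median 2.47, beside 0.02), and 10 rose in peritumoral liver against nonDEN L-WD, beside 2.36% (median 1.08, beside 0.00). Without tumor 5 the first 2 counts were 10 and 14. The list was chosen with earlier results of these data known, so its counts and tests are not independent of that choice. Igdcc4, a fetal liver surface protein, was at 9.41 ± 4.13 TPM in tumors (n = 6), 1.47 ± 1.2 TPM in peritumoral liver (n = 8) and 0.09 ± 0.0606 TPM in nonDEN L-WD (n = 4), and rose in tumors by 2.58 ± 0.51 against peritumoral liver (edgeR adjusted p = 0.000386). Cpe, carboxypeptidase E, rose by 1.98 ± 0.49 in the same comparison (adjusted p = 0.00292) and by 5.11 ± 0.78 against nonDEN L-WD (adjusted p = 1.33e-05). Spp1, osteopontin, was at 645 ± 196 TPM in tumors and 149 ± 79.4 TPM in peritumoral liver (1.97 ± 0.27, adjusted p = 8.86e-06). Spp1, Krt19, Epcam and Sox9 of this list are also cholangiocyte markers. The 6 cholangiocyte markers summed to 385 to 834 TPM in tumors, 73.9 to 325 TPM in peritumoral liver and 45.2 to 68.7 TPM in nonDEN L-WD, most of it Spp1. The 5 markers other than Spp1 summed to 5.16 to 16.4 TPM, 4.75 to 13 TPM and 3.9 to 9.82 TPM in the same groups, which overlapped. In tumors against peritumoral liver Sox9 and Spp1 of the 6 were called and the median log2 difference was 0.14, with Krt19 at 2.43 ± 1.67 TPM (SD, n = 6) in tumors and 3.73 ± 1.68 TPM (SD, n = 8) in peritumoral liver. The part of cholangiocytes in these rises was not tested. In peritumoral liver against DEN L-CD 3 of the 21 were called higher, beside 1.52% of all genes, and 1 lower, beside 0.378%. The latter was Peg10, which is also among the imprinted genes. These 4 calls were 8 without DEN L-CD replicate 4, the library highest for Gpc3 in its group, and 6 without peritumoral replicate 1. On the control diet Scd2 rose and Peg10 fell in DEN against nonDEN liver, beside 2.76% and 1.93%. Between the diets in nonDEN liver Lpl rose and Peg10, Sox9 and Tff3 fell, beside 3.24% and 2.04%.

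Among 19 tested regulators of imprints and of silencing after birth, a list that holds factors which add, keep or remove DNA methylation, 1 rose in tumors against peritumoral liver, beside 4.81% of all genes: Zfp57, a zinc finger protein that holds methylation at imprinted loci. It was at 8.45 ± 4.26 TPM in tumors (n = 6), 1.60 ± 1.29 TPM in peritumoral liver (n = 8) and 0.353 ± 0.114 TPM in nonDEN L-WD (n = 4). Zfp57 rose in tumors against peritumoral liver by 2.28 ± 0.47 (edgeR adjusted p = 0.000586) and against nonDEN L-WD by 4.37 ± 0.71 (adjusted p = 2.82e-05). In peritumoral liver against nonDEN L-WD it passed with all libraries (2.09 ± 0.66, adjusted p = 0.0411) and did not without peritumoral replicate 3 (1.70, adjusted p = 0.0788). Zfp445, a related keeper of imprints, fell in tumors against nonDEN L-WD by 1.13 on the log2 scale (adjusted p = 1.12e-05), while Uhrf1, a partner of the maintenance methyltransferase, rose by 2.08 ± 0.40 (adjusted p = 0.000162). Zhx2 and Zbtb20, repressors of Afp in adult liver, were not called between tumors and peritumoral liver. Zhx2, which also acts on H19, differed by −0.03 ± 0.07 (adjusted p = 0.738), and Zbtb20 by −0.47 ± 0.14 (adjusted p = 0.0115), short of the 2-fold threshold.

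The IGF axis was called in both directions. Of 15 tested genes of the IGF axis, 2 rose and 2 fell in tumors against peritumoral liver, beside 4.81% and 3.09% of all genes. Igf1, the adult liver growth factor, fell by 1.30 on the log2 scale (166 ± 38.4 TPM, n = 6, against 369 ± 94.7 TPM, n = 8, edgeR adjusted p = 5.7e-07), with every tumor below every peritumoral sample. Igfals, which carries IGF complexes in blood, fell by 1.23 (adjusted p = 1.21e-05), and the binding protein Igfbp1 rose by 2.24 ± 0.44 (adjusted p = 0.000415), with Grb10 as the other gene that rose. At the level of TPM, Igf1 thus exceeded Igf2 by far in tumors, at 125.85 to 235.81 TPM against 0.73 to 3.33 TPM. The receptors differed by less than 2-fold. Igf2r, the maternal receptor that clears IGF2, was 0.38 ± 0.08 higher in tumors than in peritumoral liver (adjusted p = 0.000421), and Igf1r differed by −0.20 ± 0.17 (adjusted p = 0.391).

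Relatives of Gpc3 did not share its range. Gpc4, which lies 107.2 kb from Gpc3, differed by 0.39 ± 0.15 between tumors and peritumoral liver (edgeR adjusted p = 0.0411), short of the threshold. It was at 17.43 TPM in tumor 5 and had a tumor median of 41.9 TPM. Gpc6 rose against nonDEN L-WD in tumors (1.99 ± 0.26, adjusted p = 2.56e-06) and in peritumoral liver (1.22 ± 0.25, adjusted p = 0.00454). Gpc1 fell in tumors against nonDEN L-WD by 1.35 (adjusted p = 0.00713), and Notum, an enzyme that cleaves glypican anchors, fell by 1.54 (adjusted p = 3.41e-08) and, against peritumoral liver, by 1.16 (adjusted p = 6.44e-07). Of 8 tested Notch pathway genes, with which Dlk1 is grouped, 4 rose in tumors against nonDEN L-WD, beside 10.4% of all genes, among them Notch3 (1.57 ± 0.25, adjusted p = 2.51e-05) and Dll4 (1.24 ± 0.21, adjusted p = 5.63e-05). Endothelial and stellate markers moved with them, with 1 of 6 and 4 of 10 called higher in that comparison, and their part was not tested. Against peritumoral liver 1 of the 8 was called, Jag2, beside 4.81%. Jag2 lost its call without tumor 5 and without peritumoral replicate 1 or 3, and without replicate 3 Notch3 was called.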

How the data were processed

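RNA of 25 mouse samples was read from polyadenylated, single-end libraries on an Illumina HiSeq. The authors checked reads with FastQC, aligned them to GRCm38 with STAR and estimated with RSEM an expected count per gene, which is not normalized. RSEM also gave the authors' deposited TPM values, which are corrected for length and sum to the same total in each library. STAR and RSEM versions, the strand setting and the release of the annotation are not given in the sources used here. Each sample has 1 table, and all were used.

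After rounding, the counts were fitted with edgeR 4.0.16 in R 4.3.3 (TMM, filterByExpr with a minimum count of 10, quasi-likelihood test, all 5 groups in 1 fit). P-values were adjusted by Benjamini-Hochberg over 15625 genes. Every adjusted p printed is from this fit or, where a library is said to be left out, from the same fit without it. DESeq2 1.42.0, the authors' tool, was an alternative. The procedure was tested on simulated data. Tables and figures were made with Python 3.11.15, pandas 2.3.3 and Matplotlib 3.10.9. The members, gene lists and naming rules were chosen with earlier results of these data known. Named were the neighbours and relatives of the members, and up to 3 called genes per list, direction and comparison with at least 20 normalized counts. Phlda2, Ndn, Jag2, Malsu1, Krt19, Epcam, Apoa1, Cyp2e1, G6pc and the microRNA rows fall outside that rule and were named after their values were seen. The labels do not say whether replicate numbers shared between groups mark pairs, so these numbers entered as a block only in an alternative. The tests took tumor and peritumoral pieces as independent, though some may come from 1 mouse. Gene positions are those of GENCODE on GRCm38 and sequences those of RefSeq on GRCm38.p6, in which 7 of the 8 members have a promoter window.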

Additional observations from a re-analysis of the deposited data

Results flagged for a closer look

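Of 31 groups of 4 to 8 libraries in which the values of a member were not all equal, 5 held a library far from the others by Dixon's ratio of the gap to the range. Chance marks about 1 group in 20 where values are normally distributed. The TPM values were not checked for this, and the 5 libraries were all the highest of their group. Tumor 5 was the high library for Igf2, at 3.33 TPM against 0.73 to 1.64 TPM in the other tumors, and for Igf2bp3, at 0.97 against 0.21 to 0.39 TPM. Replicate 4 of DEN L-CD was high for Gpc3, at 14.54 TPM where the next library had 4.22 TPM. Peritumoral replicate 3 was high for Meg3, at 5.8 TPM against a group median of 1.48 TPM, and peritumoral replicate 4 for Peg3, at 2.44 TPM against a median of 1.5 TPM. Gpc3 of tumor 5, at 6.95 TPM, was the lowest of its group.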

How the results depend on the processing

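Counts of other imprinted genes called, of either direction, were 6 for tumors against peritumoral liver, 12 for tumors against nonDEN L-WD, 4 for peritumoral liver against nonDEN L-WD, 4 for peritumoral liver against DEN L-CD, 1 for DEN against nonDEN liver on the control diet and 6 between the diets in nonDEN liver. In that order they were 20, 21, 7, 10, 9 and 12 with no minimum fold change. Leaving out 1 library at a time gave 5 to 7, 9 to 14, 3 to 4, 2 to 5, 1 to 4 and 2 to 7. Those that moved a count by over 1.5 times were DEN L-CD replicate 3 in the fourth comparison (2), nonDEN L-CD replicate 1 (4) and DEN L-CD replicates 3 and 4 (3 each) in the fifth, and nonDEN L-CD replicates 2 (2) and 3 (3) and nonDEN L-WD replicate 1 (3) in the sixth. For DEN L-CD against nonDEN L-CD, DESeq2 called 2 and a fit of only the 2 groups 3. Whether numbers shared by replicates mark pairs cannot be settled from the counts. Of 6 tumors, 1 correlated best with the peritumoral sample of its own number. The 3 DEN L-CD samples that share a number with nonDEN L-CD all correlated best with their own number there, a hint from the data alone. With the replicate block the counts were 3 for tumors against peritumoral liver and 2 for each of peritumoral liver against nonDEN L-WD, peritumoral liver against DEN L-CD and DEN L-CD against nonDEN L-CD. The cause of these shifts was not tested. Of the members' log2 differences under the alternatives, 732 stayed within the spread of the main value and 42 moved further, 22 of these on log2(TPM + 1) and 10 on log2(TPM + 0.1), scales that shrink the differences of low genes. None of the called differences changed sign, while 6 values of differences that were not called did. They were Igf2 in tumors against peritumoral liver without tumor 5 (−0.04), Peg3 in peritumoral liver against nonDEN L-WD without replicate 3 or 4 of the latter (both within 0.01 of 0), Meg3 in peritumoral liver against DEN L-CD without peritumoral replicate 3 (−0.17), and Dlk1 in DEN against nonDEN liver on the control diet on log2(TPM + 0.1) (−0.33) and log2(TPM + 1) (−0.02). Likeness depended on its measure: with Spearman's rho 0 of the 3 genes most like H19 or Igf2bp3 were kept. Alternatives with a fit of 2 groups or no filter for members, the oncofetal counts without single libraries and tumor means without tumor 5 were chosen after seeing the data. Counts of Dlk1, and of Igf2bp3 outside the tumors, were too few in most libraries for more than their presence to be read.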
